A study of Homo sapiens with 4 samples.

Results

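Open chromatin was examined around 10 genes that mark epithelial cells of the endometrium: EPCAM, CDH1, KRT8, KRT18, KRT7, KRT19, PAX8, SOX17, EMX2 and ESRP1. Regions were taken when their whole span lay inside 1 of 9 hg19 windows, each made of a gene body plus about 50 kb on either side, with KRT8 and KRT18 sharing a window. The windows covered 1.29 Mb and held 13 of the 15269 regions in the 4 deposited lists, 9 from the dexamethasone library and 4 from the estradiol library. The vehicle and combination libraries had none. Merged by overlap, the 13 regions made 10 sites.

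The libraries came from Ishikawa cells, a long-established line from a human adenocarcinoma of the endometrium, by ATAC-seq, in which a transposase inserts adapters into accessible DNA. All cells were kept beforehand without phenol red and in charcoal-treated serum, which removes most steroid hormones, and were then exposed for 1 hour. One group received vehicle (DMSO), one 100 nM dexamethasone, a synthetic ligand of the glucocorticoid receptor, one 10 nM estradiol, which activates the estrogen receptor, and one both hormones at these doses. Each treatment had 1 library of 1 cell line, so no spread between replicates exists, no test between treatments was made, and every difference below is one between libraries. After duplicate removal the libraries held 8240912 (combination), 10694743 (vehicle), 14980230 (dexamethasone) and 20185339 (estradiol) tags, and the modelled fragment lengths were 51, 104, 89 and 84 bp. The lists held 146, 1923, 8428 and 4772 regions in that order.

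Epithelial cells are held together by adhesion molecules and supported by keratin filaments. EPCAM is a cell surface adhesion protein and CDH1 encodes E-cadherin, the core of adherens junctions. KRT8 and KRT18 pair into the main keratin filament of simple epithelia, where KRT7 and KRT19 are also made. PAX8, SOX17 and EMX2 are transcription factors of the female reproductive tract, which develops from the Müllerian duct, and PAX8 is used in pathology as a marker of tumours of this origin. ESRP1 is an RNA-binding protein that sets the splicing patterns typical of epithelial cells. An open region near such a gene is not a measure of its expression.

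Promoter sequences were matched for 3 of the 10 genes, and all 3 are shown. Of these genes, PAX8 had the most sites in its window, KRT8 shared a window with 1 site and EMX2 had none. Each is the 250 bases before a start of the gene listed by RefSeq on GRCh38.p14, with CpG dinucleotides in capitals. It reads 5′ to 3′ on the strand of the gene. Only the first start listed for each gene was taken, so a stretch need not be the main promoter of its gene. The ranges are chr2:113278922-113279171 on the minus strand for PAX8, chr12:52926470-52926719 on the minus strand for KRT8 and chr10:117542496-117542745 on the plus strand for EMX2. These coordinates cannot be laid on the hg19 regions below, so whether a called region covers them is not stated.
PAX8: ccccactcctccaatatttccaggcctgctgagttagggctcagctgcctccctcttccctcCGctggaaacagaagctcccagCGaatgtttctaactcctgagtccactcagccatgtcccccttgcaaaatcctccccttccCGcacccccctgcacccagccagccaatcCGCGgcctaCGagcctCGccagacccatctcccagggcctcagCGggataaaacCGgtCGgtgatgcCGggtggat
KRT8: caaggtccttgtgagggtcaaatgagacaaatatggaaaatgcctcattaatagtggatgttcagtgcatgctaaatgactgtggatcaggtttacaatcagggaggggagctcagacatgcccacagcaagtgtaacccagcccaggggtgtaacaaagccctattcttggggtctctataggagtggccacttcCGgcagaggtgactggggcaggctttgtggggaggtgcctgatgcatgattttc
EMX2: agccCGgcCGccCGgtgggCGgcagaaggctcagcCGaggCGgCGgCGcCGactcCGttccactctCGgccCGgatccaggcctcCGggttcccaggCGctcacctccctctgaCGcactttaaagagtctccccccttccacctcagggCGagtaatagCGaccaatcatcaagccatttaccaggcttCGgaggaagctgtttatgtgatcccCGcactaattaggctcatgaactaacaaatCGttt

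The EMX2 stretch held 20 CpG dinucleotides at 60.4% GC, more CpG than 67.6% of the 35116 promoters in the table. The PAX8 stretch held 11, which is the median of all promoters, at 61.6% GC. The KRT8 stretch held 1 at 50.4% GC, and 6.06% of promoters had fewer. The gene with the most CpG-dense stretch was thus one without a called region in its window, and the 3 genes are too few to relate CpG content to calls.

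Both strands of the 3 promoters were searched for 11 motifs, with these matches as a description of letters only. EMX2 held GGGCGG, a core of SP and KLF factor sites, at 2 positions that do not overlap, and 42.6% of all promoters held it. It also held TAATTA, a homeobox core, which 4.35% of promoters held. None of the 3 held the glucocorticoid response element, searched as AGAACA and TGTTCT with 3 free bases between them (in 0.00285% of promoters) and in the relaxed form GNACA and TGTNC with the same spacing (0.327%). None held the estrogen response element, GGTCA and TGACC with 3 free bases between them (0.0399%). The same was true of TGANTCA for AP-1 (6.57%), GGAATG for TEAD (11.9%), AACCNGGTT for grainyhead-like factors (0.202%), ACAATNG for SOX factors (6.01%), TGTTTAC for forkhead factors (2.98%) and CCACNA followed directly by GGGGGC for CTCF (0.125%).

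Dexamethasone regions lay at 5 of the 9 loci, estradiol regions at 3, and 6 loci held a region in either library. KRT19, SOX17 and EMX2 held none. Over whole chromosomes, a stretch as long as a window most often held no region of a given list. Of 21113 consecutive tiles of the mean window length (143.333 kb) on chromosomes 1 to 22 and X, 27% held a dexamethasone region, 17.2% an estradiol region, 7.93% a vehicle region and 0.417% a combination region. For windows as short as those of KRT19, SOX17 and EMX2 (110 kb), 77.8% of tiles had no dexamethasone region and 86.04% had no estradiol region. The tiles, here and below, include gene deserts and were not matched for gene density. They do not show what is usual around a gene.

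**Figure D1:**
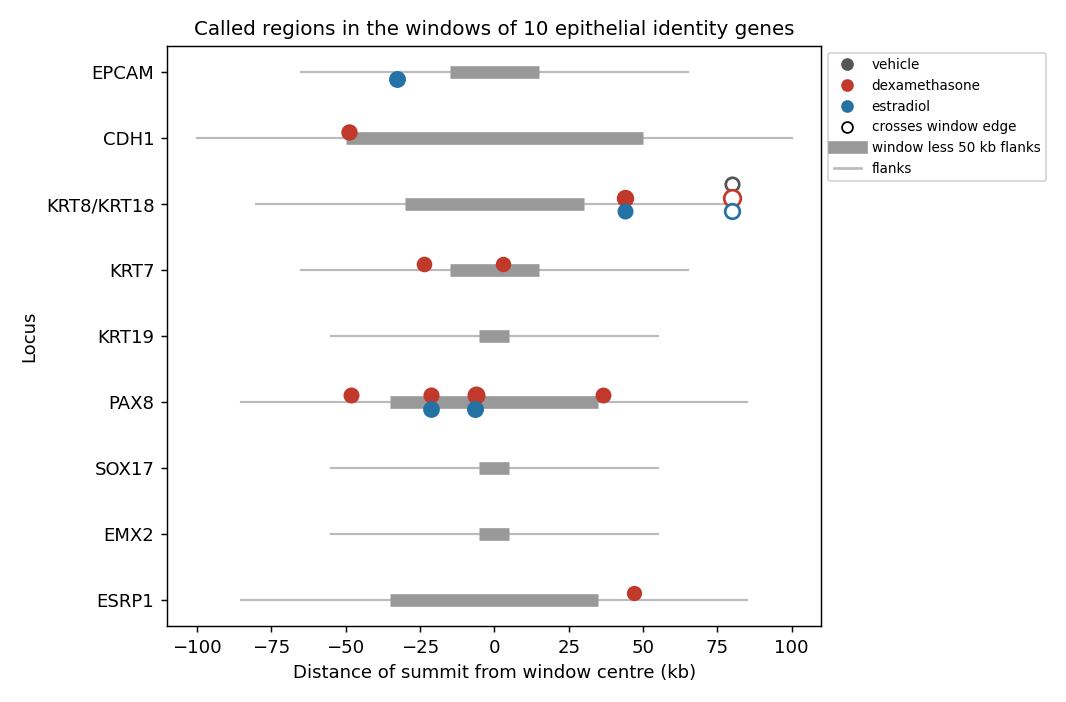
Summits of called regions in each window, plotted by distance from the window's centre in kb, with symbol area proportional to fold enrichment and colour giving the library. The thick bar is the window without its 50 kb flanks. PAX8 carries 4 dexamethasone and 2 estradiol regions, KRT19, SOX17 and EMX2 carry none, and the only vehicle region (open symbol) crosses the edge of the KRT8 and KRT18 window.

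No hg19 annotation was used, so positions within a gene are given against the central stretch, which is the window less its 50 kb flanks. Window edges are rounded to 10 kb, and the central stretch matches the gene body only to that precision. Of the 10 sites, 4 had their summit in a central stretch and 6 in a flank, where neighbouring genes also lie.

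Among the adhesion genes, EPCAM had 1 region and only after estradiol. It lay on chromosome 2 from 47572213 to 47572304, with a pileup of 16 extended tags at the summit and a fold enrichment of 8.84 over the library's own local background. Its summit was 17.7 kb from the central stretch on the lower-coordinate side. No other library called it. The dexamethasone list was longer, but the estradiol library held more tags after duplicate removal (20185339 against 14980230). By p-value the region was stronger than 24.4% of the estradiol list.

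CDH1 also had 1 region, and only after dexamethasone. It lay on chromosome 16 from 68771102 to 68771190, with 13 tags and an 8.22-fold enrichment. The summit was 1.12 kb inside the lower-coordinate edge of the central stretch, the end at which E-cadherin transcription starts, to within the rounding. It was 89 bp long, the shortest that this library could give because it equals the modelled fragment length. It was stronger by p-value than 4.76% of the dexamethasone list.

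At the keratins, KRT8 and KRT18 had 1 site inside their window, called after both single hormones. The dexamethasone region ran on chromosome 12 from 53363948 to 53364104, with 24 tags and a 9.48-fold enrichment. The estradiol region ran from 53364019 to 53364115, with 19 tags and a 7.70-fold enrichment. The spans shared 86 bp and the summits were 61 bp apart. The summits lay 14.0 and 14.1 kb beyond the central stretch, on the higher-coordinate side.

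A second site crossed the edge of that window and was not counted among the 13. It was the only region touching any window in the vehicle library: it ran from 53399892 to 53400103 with 16 tags and a 7.93-fold enrichment. The dexamethasone region there ran from 53399904 to 53400104 with 31 tags (12.1-fold), and the estradiol region from 53399933 to 53400122 with 23 tags (9.34-fold). It was thus called in 3 of the 4 libraries, and at 12.1-fold it was stronger than all 9 counted dexamethasone regions. It was about 50 kb from the keratin pair on the side where the next protein-coding gene in the GRCh38.p14 order is EIF4B, a translation initiation factor gene. Counting it would give vehicle 1, dexamethasone 10 and estradiol 5 regions and 11 merged sites.

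KRT7 had 2 regions, both called after dexamethasone alone. One lay on chromosome 12 from 52611160 to 52611304, 8.76 kb outside the central stretch on the lower-coordinate side, with 17 tags and a 7.29-fold enrichment. The other lay from 52638003 to 52638091 within the central stretch, with 20 tags and a 7.06-fold enrichment, and was also 89 bp long. Lengths at this minimum made up 6.28% of the dexamethasone list, and 2 of the 9 dexamethasone regions here. At least 2 dexamethasone regions occurred in 7.67% of tiles of the same length. KRT19 had no region in any library.

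Of the transcription factor genes, PAX8 held 4 of the 10 sites. The strongest, on chromosome 2, was called after dexamethasone from 113998544 to 113998817 with 27 tags and a 10.3-fold enrichment, and after estradiol from 113998551 to 113998800 with 21 tags and an 8.94-fold enrichment. It lay in the central stretch. At 274 and 250 bp it was the longest site of the set, and the summits in the 2 libraries were 122 bp apart although the estradiol span lay wholly inside the dexamethasone span.

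The second PAX8 site was also in the central stretch and in both lists. It ran from 113983592 to 113983696 after dexamethasone, with 20 tags (7.88-fold), and from 113983557 to 113983691 after estradiol, with 20 tags (8.59-fold). The 2 summits were 5 bp apart, the closest agreement among the shared sites.

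The other 2 PAX8 sites were called after dexamethasone alone. One lay from 113956769 to 113956891, 13.2 kb outside the central stretch on the lower-coordinate side, with 22 tags and a 7.75-fold enrichment. The other lay from 114041499 to 114041616 with 19 tags and a 7.61-fold enrichment. Its summit was 1.58 kb beyond the higher-coordinate edge of the central stretch, the end where PAX8 transcription starts, to within the rounding. At least 4 dexamethasone regions were found in 1.30% of tiles as long as the PAX8 window (170 kb), and 2 or more estradiol regions in 5.10%. PAX8 was picked out of the 9 loci after its count was seen.

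SOX17 and EMX2 had no region in any of the 4 lists. ESRP1, the splicing regulator, had 1 region on chromosome 8 from 95731864 to 95731959, called after dexamethasone alone with 14 tags and a 6.90-fold enrichment. It was the weakest of the set, stronger by p-value than 0.486% of its list. Its summit was 11.9 kb beyond the central stretch on the side where DPY19L4 is the next protein-coding gene in the GRCh38.p14 order.

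Among regions lying wholly inside the windows, agreement between the libraries was limited to 3 sites, 2 at PAX8 and 1 beside KRT8 and KRT18. By any overlap there were 4, with the site crossing the edge of the KRT8 and KRT18 window. The shares that follow are by whole span. An estradiol region overlapped 3 of the 9 dexamethasone regions (33.3%, exact Clopper-Pearson 95% interval 7.49 to 70.1), where 49.7% of the whole dexamethasone list did. Among the 4 estradiol regions, 3 were also called after dexamethasone (75%, 19.4 to 99.4), where 88.7% of the list did. Both list shares lay inside the intervals. These intervals cover counting error only.

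No region lying wholly inside the windows was shared with vehicle. The site crossing the edge of the KRT8 and KRT18 window was, and by any overlap 10% of dexamethasone and 20% of estradiol regions were shared with vehicle. By whole span, a vehicle region overlapped 0 of the 9 dexamethasone regions (interval up to 33.6%), against 22% of the whole list. The same held for 0 of the 4 estradiol regions (up to 60.2%), against 35.2%. Among list regions whose −log10 p lay within the range of the regions described here, the shares called in vehicle were 9.32% for dexamethasone and 20.6% for estradiol. The shares called after the other hormone were 35.2% and 85.5%. The dexamethasone range took in 6018 of the 8428 regions of its list. By p-value, 7 of the 9 dexamethasone regions did not exceed the list median, so strength was not closely matched. In the combination library 0 of 9 and 0 of 4 were called, where 1.16% and 2.31% of the whole lists and 0.183% and 0.15% of the list regions in that range of p were. A count of 0 among so few regions was therefore not distinguishable from the lists at this depth, and a missing call says only that a region was below that library's threshold.

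Density in the windows was set beside the density of the whole list. After dexamethasone there were 6.98 regions per Mb of window (exact Poisson 95% interval 3.19 to 13.2), against 2.78 per Mb over chromosomes 1 to 22 and X. After estradiol there were 3.10 per Mb (0.845 to 7.94), against 1.57. The vehicle and combination windows held 0, which allows up to 2.86 per Mb, against 0.632 and 0.0429 over all chromosomes. The dexamethasone interval lay above the density of its list and the other 3 included theirs. These intervals cover counting error only and treat regions as independent, so they are too narrow where regions cluster. Clustering was not modelled. With a −log10 q of at least 10, 6 dexamethasone regions gave 4.65 per Mb (1.71 to 10.1) against 2.63 for the list filtered alike, and that interval included the list density. The comparison is with whole chromosomes, gene deserts included, and gene density was not matched. PAX8 alone gave 4 of the 9 dexamethasone regions, and without its window the density was 4.46 per Mb (1.45 to 10.4), an interval that also included the list's 2.78. The dexamethasone interval stayed above 2.78 with windows narrowed by 25 kb (4.90 to 20.3), where only the denominator fell. It also did with windows widened by 50 kb (4.52 to 12.4) and by any overlap (3.72 to 14.3). With lists of equal length the interval was 0 to 2.86 against 0.634, and included the list density.

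**Figure D2:**
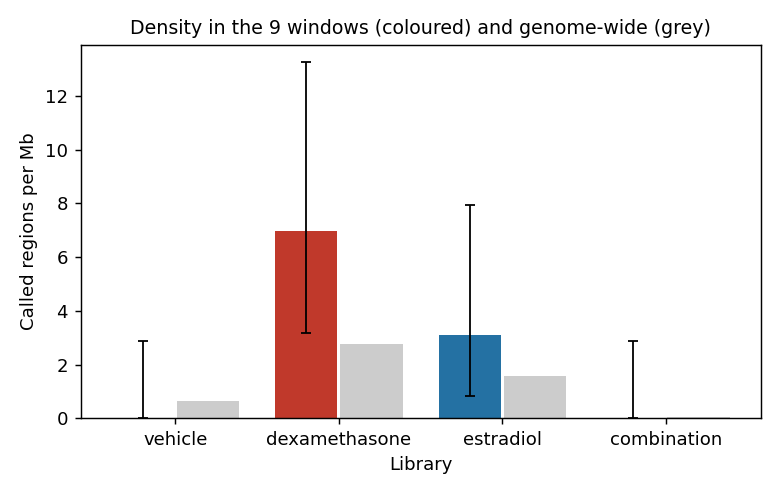
Called regions per Mb in the 9 windows (coloured bars, with exact Poisson 95% intervals) and over chromosomes 1 to 22 and X (grey bars) for each library. The dexamethasone windows stand at 6.98 per Mb against 2.78, the estradiol windows at 3.10 against 1.57, and the vehicle and combination windows at 0.

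The regions at these genes were weak ones for their libraries. Fold enrichment of the 9 dexamethasone regions ran from 6.90 through a median of 7.75 to 10.3, and 8 of the 9 did not exceed the list median of 10.04. The exception was the long PAX8 region. The 4 estradiol regions ran from 7.70 through a median of 8.71 to 8.94, all below the list median of 9.43. By p-value, 7 of 9 and 4 of 4 were below the medians of their lists.

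Pileups differed less from the lists than fold enrichment did. The dexamethasone regions had a median of 20 tags, against 21 in the list, and the estradiol regions 19.5 against 20. The local background, recovered from pileup and fold enrichment, had a median of 1.64 extended tags in the dexamethasone regions against 1.14 in the list, and exceeded the list median in 8 of 9. CDH1 was the exception at 0.703. In the estradiol regions it was 1.45 against 1.18, above the list median in 3 of 4, with EPCAM at 0.924. Regions were also shorter, with median lengths of 118 bp against 152 after dexamethasone and 116 bp against 137 after estradiol.

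**Figure D3:**
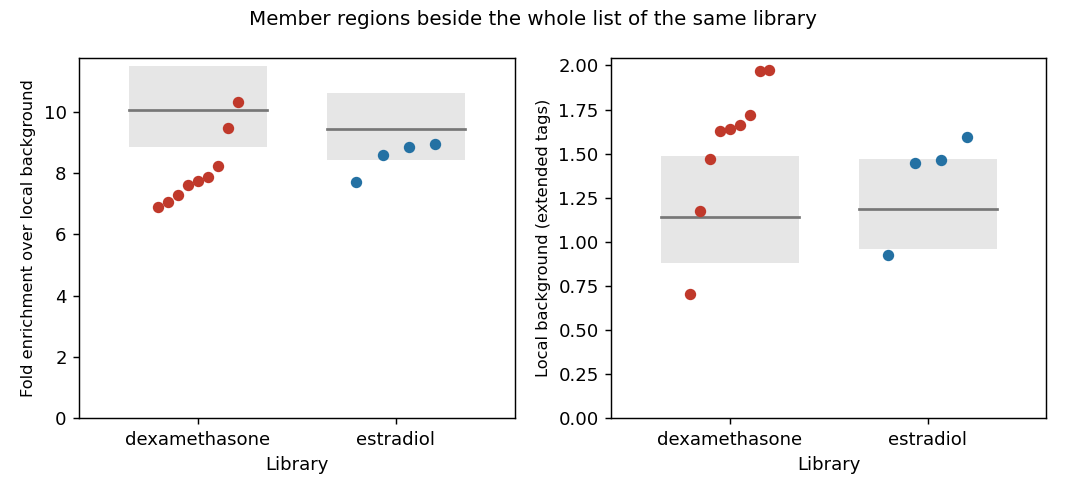
Fold enrichment (left) and local background in extended tags (right) of each region in the windows (points), with the median (line) and the middle 50% (grey box) of the whole list of the same library. Of the 9 dexamethasone points, 8 lie below the median fold of 10.04 and 8 lie above the median background of 1.14.

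The counts depended on list length. When the dexamethasone and estradiol lists were each restricted to their strongest 1923 regions by p-value, the length of the vehicle list, 0 regions inside the windows remained in any of the 3 lists. The higher counts after dexamethasone and estradiol than after vehicle at these genes thus consisted of regions below that rank. Within 50 kb outside the window edges, 7 further dexamethasone and 2 estradiol regions were called, beside KRT8 and KRT18, KRT7, PAX8 and ESRP1, with dexamethasone fold enrichments from 7.11 to 12.05.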

How the data were processed

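The data are 4 peak tables. MACS 2.1.0.20140616 was run by the authors, per the file headers, separately for every library and with no control, at a p cutoff of 1.00e-10, with 1 tag kept per position and a local background over 10000 bp. Tags of 50 bp were extended to the modelled fragment length, so signal counts extended tags, not transposase cut sites. Bowtie 1.1.2 and hg19 are named in the submitters' processing notes. The deposited pileup signal is not scaled to depth, so pileups were not compared between libraries. Fold enrichment, as deposited, is the ratio of pileup to background, each plus 1, and was inverted to give the background. Deposited p-values and q-values are −log10. These values are the authors' own.

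Windows were read from the rule for the genes, overlaps needed 1 bp, and tiles were counted by summit. Genes, windows and lists were chosen with earlier results of these data known. All 10 genes are named, with every region in their windows. Other epithelial, stromal, immune and endothelial gene lists and motifs within regions were not analysed here, as no hg19 annotation or sequence was used, so the line's identity was not checked. Gene order is that of GRCh38.p14. Overlap, merging and tiling were tested on simulated data. Alternatives changed the q, fold, window, overlap and list length settings. The software was matplotlib 3.10.9, scipy 1.17.1, pandas 2.3.3 and numpy 2.4.6 under Python 3.11.15.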

Additional observations from a re-analysis of the deposited data

Results flagged for a closer look

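The number of regions in the windows moved in opposite directions with and without the other hormone. Dexamethasone minus vehicle was 9 regions, and the combination minus estradiol was -4. Estradiol minus vehicle was 4 regions, and the combination minus dexamethasone was -9. With a combination count of 0, the negative values only restate the estradiol and dexamethasone counts. At the density of the combination list 0.0554 regions would be expected in the windows, so a count of 0 there says little. The whole lists did the same, with 8428 dexamethasone regions against 1923 in vehicle and 146 in the combination against 4772 after estradiol. With 1 library in an arm, these differences were not tested. Both negative values come from the combination sample, with the lowest tag number (8240912), the shortest modelled fragment length (51 bp) and 146 regions in all, and the part of these in the result was not tested.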

How the results depend on the processing

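Of 107 alternative values, 90 stayed within 1.5 times the reported count or density, or within the interval of the reported share, and 17 did not. Many of the 90 are a 0 beside a reported 0, for vehicle and the combination, and say little about stability. With lists of equal length, the counts were 0 after dexamethasone and 0 after estradiol, and no shares could be computed. With windows widened by 50 kb on each side, they were 1 for vehicle, 17 for dexamethasone and 7 for estradiol, with 18 merged sites, 6 shared by both hormones and 11 in dexamethasone alone, and the vehicle density was 0.457 per Mb. Narrowing by 25 kb on each side lost no region and gave densities of 10.7 per Mb after dexamethasone and 4.76 after estradiol, since only the denominator fell. With a −log10 q of at least 10, sites in dexamethasone alone fell from 6 to 3. The vehicle count was 1 when regions were counted by summit, and also by any overlap, where the vehicle density was 0.775 per Mb. Without the PAX8 window, densities were 4.46 per Mb after dexamethasone and 1.79 after estradiol. These, and the density, sites and shares by any overlap, were chosen after seeing the data. A fold enrichment of at least 5, an overlap of 50% of the shorter region and an extension of 500 bp moved none of the values computed with them. The fold cutoff could remove no region in the windows, because the lowest fold enrichment there was 6.90. No paired analysis was possible because each treatment had 1 library and no test was made, and leaving out a replicate was not possible for the same reason. With 4 to 9 regions per library, the counts have wide intervals.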
